A study of Homo sapiens with 16 samples.

Results

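The effect of methyl methanesulfonate (MMS) in cells already on sorafenib was read 24 h after MMS was added, in 4 of the 16 RNA-seq libraries of the series. The libraries were chosen by their labels: 2 came from MDA-MB-231 cells given sorafenib and then MMS, called the combination here, and 2 from cells given sorafenib alone for 24 h. MDA-MB-231 is a human breast cancer line of mesenchymal type. Sorafenib, a multikinase inhibitor of RAF kinases and of the VEGF and PDGF receptors, was given at 1 µM in both groups. The combination had it for 12 h before MMS, and so for 36 h in all against 24 h, so that the effect of MMS and that of 12 h more sorafenib cannot be told apart here. MMS is a small alkylating agent; the labels put its dose at 40 µM, whereas the text on the series gives 40 µg/mL, and this was not resolved. Cells grew in DMEM with 10% serum, and RNA came from dishes that were not confluent. The 2 libraries of a group come from independent experiments per the series description, which the titles mark as MDA231 (replicate 1) and MDAMB231 (replicate 2). Further pairs of groups serve for comparison: MMS with DMSO, the solvent, at 24 h, the combination with sorafenib at 8 h, and sorafenib with DMSO at 24 h, again with 2 libraries in each group. The study's title places the work in inflammation and angiogenesis under low-dose sorafenib and alkylating agents.

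MMS places methyl groups on the nitrogens of DNA bases, and less often on oxygen. Base excision repair, started by the glycosylase MPG, and the ALKBH dioxygenases remove these lesions; those met by a replication fork are bypassed by translesion polymerases or repaired by recombination. MMS also alkylates proteins and glutathione, and it is a known trigger of the NRF2, ATF4 and unfolded protein programs. Sorafenib acts upstream of the ERK kinases, whose output includes cytokine and growth factor genes.

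The 4 libraries held 23557101 and 17810545 reads counted in genes with sorafenib, and 26381349 and 22878539 with the combination, within the 16774156 to 26448212 of the whole series. Values below are CPM, a gene's count scaled to the reads of its library with TMM factors, with sorafenib before the combination and replicate 1 before replicate 2, or log2 changes of the combination against sorafenib with their standard error (SE), n = 2 libraries in each group throughout. A gene is said to rise or fall when edgeR's quasi-likelihood test, fitted over all 16 libraries and adjusted over all 13948 genes tested, gave an adjusted p under 0.05. The mesenchymal marker VIM was high in all 4 libraries (2005 and 2374 against 1425 and 1692 CPM), whereas SPARC was at most 0.776 CPM and TWIST1 at 0 counts. Of the luminal markers the oestrogen receptor gene ESR1 had at most 3 counts, while the keratins KRT8 (294.7 and 345 against 189 and 206 CPM), KRT18 (266 and 260.5 against 229.9 and 225 CPM) and KRT19 (192 and 227 against 91.2 and 116 CPM) were abundant. Markers of fibroblasts, endothelium and immune cells were uneven: CD3E had at most 1 count, COL3A1 and VWF at most 3 and DCN at most 4, but COL1A1 stood at 18.5 and 18.1 against 13.3 and 12.8 CPM, PDGFRB at 12.1 and 10.9 against 2.96 and 1.68 CPM and KDR at 10.0 and 10.3 against 5.69 and 5.62 CPM. Of the 15 on the list 9 passed the low-count filter, of which 0 rose and 6 fell, with a median of -2.30 (3 fell without the combination's replicate 1, and 3 without its replicate 2). Their summed level, mostly CD68, which other cells express as well, was 152 and 182 CPM with sorafenib and 116 and 139 with the combination. The libraries came from MDA-MB-231 cells, as given above, and the source of these marker reads was not tested. In whole-culture RNA, fewer cells of a kind and less RNA per cell cannot be told apart.

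Of 13948 genes tested, 5127 passed (36.8%): 2511 rose (18%) and 2616 fell (18.8%), and the median change of all genes was 0.00. These shares are the background for each count of list members below. Among called genes the CPM of the groups did not overlap in any, against 35.5% of all tested genes lying wholly higher and 34.4% wholly lower. Where the groups of a called gene are said below to lie apart, this therefore adds nothing to its call. Changes of at least 2-fold were mostly falls, with 933 genes (6.69%) lower and 232 (1.66%) higher. The count of called genes was 3302 without the sorafenib library of replicate 1 and 3264 without the combination library of replicate 2. With the replicate block, which removes the difference between the experiments, it was 7577 (54.3%; 26.6% higher and 27.8% lower), and list counts with the block below are to be read against these shares. All fits that leave out 1 library were made without this block. There the 1 library left in a group is set against 2 of another, so the difference between the experiments enters the change. A call lost or a sign reversed in such a fit is therefore not shown to rest on 1 library. Counts of 1 or 2 members rest on few genes and often changed in such fits. Without the sorafenib library of replicate 1 the rises went to 0 among matrix and mitosis genes and to 1 among cytokines and TGF-beta genes, and the falls to 0 among heat shock, mitochondrial ribosome and snoRNA host genes and to 1 among recombination and proteasome genes. Without the combination library of replicate 1 the rises went to 0 among matrix, cytokine and endoplasmic reticulum genes, and the falls to 0 among heat shock and to 1 among proteasome genes. Without the sorafenib library of replicate 2 the rises went to 0 among endoplasmic reticulum and hypoxia genes and to 1 among cytokines and Notch genes, and the falls to 0 among mitochondrial ribosome and snoRNA host genes and to 1 among recombination and translesion genes. Without the combination library of replicate 2 the rises went to 0 among matrix, endoplasmic reticulum and mitosis genes and to 1 among TGF-beta and YAP genes, and the falls to 0 among mitochondrial ribosome and snoRNA host genes, to 1 among recombination and proteasome genes and to 2 among heat shock genes.

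The largest fall was in KIAA1199, also called CEMIP, whose product binds and degrades hyaluronan. It stood at 119 and 99.7 against 2.96 and 1.89 CPM (log2 change -5.48 ± 0.29 SE, adjusted p = 2.06e-06). Both combination libraries lay far below both sorafenib libraries. Other genes among the 12 largest falls were the chemokine CX3CL1 (5.95 and 4.77 against 0.438 and 0.168 CPM; -4.09 ± 0.58), the lymphotoxin gene LTB (8.02 and 7.09 against 0.840 and 0.168 CPM; -3.86 ± 0.58), the ubiquitin-like UBD (-4.33 ± 0.82), the neuronal adhesion gene NLGN1 (-3.96 ± 0.35) and the oestrogen-metabolising cytochrome CYP1B1 (42.6 and 26.4 against 3.07 and 2.01 CPM; -3.76 ± 0.32). SYT12 (-4.34 ± 0.58), PDE7B (-3.75 ± 0.62), SORL1 (-3.50 ± 0.39), VSTM2L (-3.41 ± 0.42) and OLFML2A (-3.35 ± 0.28) fell as well. AGR2, a protein disulfide isomerase family gene, differed between the replicates, at 21.5 and 4.38 against 0.949 and 0.168 CPM. Within the experiments, from log2(CPM + 0.5), it changed by -3.93 and -2.87, and its adjusted p was 2.02e-08 with the replicate block. Its change of -4.49 ± 1.32 did not pass without the sorafenib library of replicate 1 (adjusted p = 0.165) or without the combination library of replicate 1 (adjusted p = 0.0523) or without the combination library of replicate 2 (adjusted p = 0.128). The largest rise among genes with a mean count of at least 50 was in EGR1, an early growth response transcription factor, at 3.21 and 2.49 against 18.7 and 51.2 CPM (log2 change 3.59 ± 0.51 SE, adjusted p = 0.00027). The stromelysin gene MMP3 followed at 1.06 and 2.22 against 10.4 and 21.2 CPM (log2 change 3.31 ± 0.48 SE, adjusted p = 0.000313). SPHK1, which makes sphingosine 1-phosphate, rose from 11.4 and 17.6 to 46.9 and 62.1 CPM (1.92 ± 0.24). Ferritin light chain, FTL, rose from 676 and 784 to 2364 and 2811 CPM (1.83 ± 0.15). The insulin-like growth factor binding protein IGFBP3 rose from 39.3 and 55.3 to 133 and 197 CPM (1.81 ± 0.32). EGR1 and MMP3 rose from a few CPM, whereas FTL rose from 676 and 784 CPM. At 24 h MMP3 stood at 5.97 and 10.1 CPM with DMSO and at 90.2 and 94.2 with MMS alone. EGR1 stood at 11.9 and 10.2 CPM with DMSO and at 35.9 and 46.5 with MMS alone. Against DMSO, sorafenib alone changed MMP3 by -2.33 ± 0.50 and EGR1 by -1.94 ± 0.53. These changes share the sorafenib libraries and passed in edgeR only with the block (adjusted p = 1.6e-05 and 0.00209). The other rises among the 12 were in MYCT1 (3.31 ± 0.53), LOC730755 (2.41 ± 0.41), DHRS2 (2.08 ± 0.47), C6orf105 (1.74 ± 0.16), ASNS, the laminin chain LAMA1 and SNORA71C (3.02 ± 0.45), a small nucleolar RNA whose reads cannot be told apart from those of its host transcript. Within the experiments, from log2(CPM + 0.5), LAMA1 changed by 1.66 and 1.47, and its adjusted p was 3.05e-07 with the replicate block. LAMA1 (1.71 ± 0.60) did not pass without the sorafenib library of replicate 1 (adjusted p = 0.241) or without the combination library of replicate 2 (adjusted p = 0.258). By the smallest p, the tRNA methyltransferase TRMT1 (79.99 and 91.2 against 207 and 212 CPM; log2 change 1.29 ± 0.09 SE, adjusted p = 4.82e-06) and the metalloreductase STEAP3 (142 and 138 against 46.2 and 41.6 CPM; log2 change -1.67 ± 0.09 SE, adjusted p = 2.67e-06) stood beside NQO1, RRM2 and LOXL2, which are described with their groups.

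**Figure D1:**
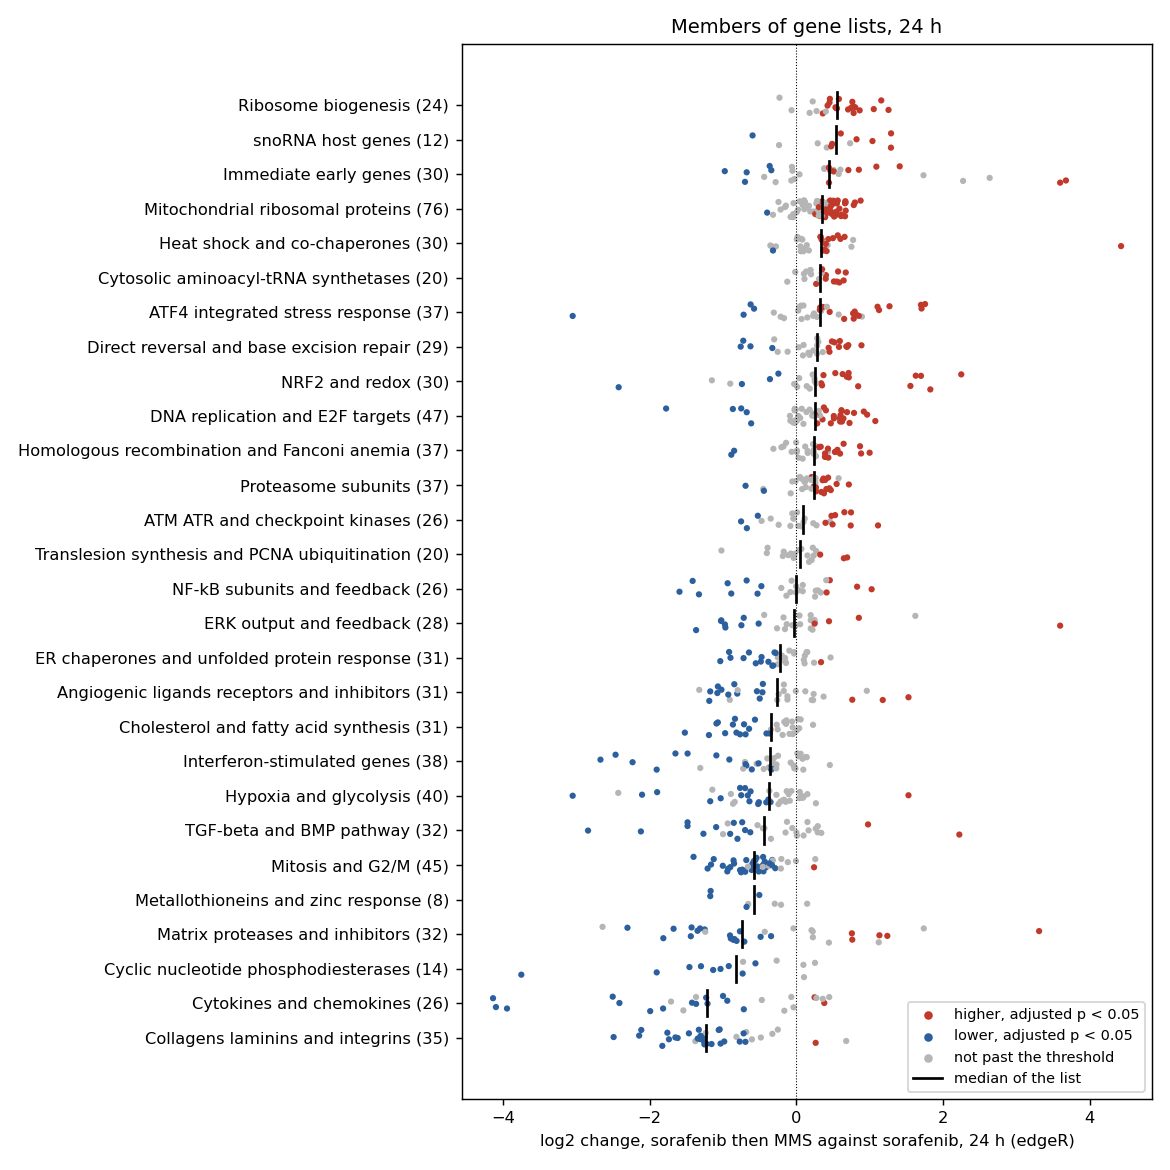
Each point is a gene of the list named on the y axis (number of tested members in parentheses), placed by its log2 change of the combination against sorafenib at 24 h; red and blue points passed an adjusted p of 0.05, and black bars mark list medians. Of the lists drawn, which leave out the cell type markers and some others, collagens, laminins and integrins had the lowest median (-1.24) and ribosome biogenesis the highest (0.55).

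Secreted inflammatory factors were mostly lower. Of 31 cytokine and chemokine genes on the list 26 were tested, of which 14 fell and 2 rose (median -1.22). IL8, now CXCL8, a chemokine that attracts neutrophils, stood at 716 and 425 against 254 and 189 CPM (log2 change -1.37 ± 0.23 SE, adjusted p = 0.000856). IL6 stood at 123 and 90.9 against 45.9 and 34.0 CPM (log2 change -1.42 ± 0.20 SE, adjusted p = 0.000266), and IL1B at 19.0 and 15.9 against 5.70 and 3.02 CPM (log2 change -1.99 ± 0.29 SE, adjusted p = 0.000317). For these genes each combination library lay below each sorafenib library, and without the sorafenib library of replicate 1 the change of IL8 was -0.91. The macrophage colony-stimulating factor CSF1 fell from 415 and 384 to 85.2 and 64.8 CPM (log2 change -2.41 ± 0.17 SE, adjusted p = 5.09e-06), about as far in each experiment. The death ligand TRAIL, TNFSF10, fell from 50.2 and 45.8 to 9.24 and 7.67 CPM (-2.50 ± 0.25), and the interferon-induced chemokine CXCL10 from 3.503 and 3.27 to 0.219 and 0.210 CPM (-3.94 ± 0.55). With the combination CXCL10 was near the detection limit, so the size of its fall is uncertain. CSF2, the granulocyte-macrophage factor, rose from 44.4 and 41.0 to 63.3 and 47.8 CPM (log2 change 0.38 ± 0.11 SE, adjusted p = 0.0189). That rise did not pass without the combination library of replicate 1 (adjusted p = 0.217) or without the sorafenib library of replicate 2 (adjusted p = 0.113). IL1A, at 6.96 and 7.37 against 3.43 and 3.73 CPM, changed by -0.9997 ± 0.29, and did not pass without any 1 of the 4 libraries (adjusted p from 0.0576 to 0.085). The neutrophil chemokines CXCL1 to CXCL3 resemble each other closely enough that their reads may be split. CXCL2 fell from 36.6 and 19.2 to 12.8 and 11.1 CPM (log2 change -1.23 ± 0.24 SE, adjusted p = 0.00169; -0.65 without the sorafenib library of replicate 1). CXCL1 stood at 424 and 281 against 260.2 and 169 CPM (log2 change -0.72 ± 0.21 SE, adjusted p = 0.0189), and its fall did not pass without the sorafenib library of replicate 1 (adjusted p = 0.28) or without the combination library of replicate 2 (adjusted p = 0.211). CXCL3 stood at 20.5 and 9.64 against 11.2 and 10.8 CPM and did not pass (log2 change -0.47 ± 0.27 SE, adjusted p = 0.201); without the sorafenib library of replicate 1 its log2 change was 0.22, and without that of replicate 2 it was -0.89 and passed. The prostaglandin synthase gene PTGS2 likewise did not pass, at 22.5 and 10.6 against 11.8 and 9.60 CPM (log2 change -0.64 ± 0.43 SE, adjusted p = 0.276, 0.0151 with the replicate block), and stood at 0.05 without that library. Downstream of it PTGES, the inducible prostaglandin E synthase, fell from 239 and 211 to 75.3 and 51.6 CPM (log2 change -1.82 ± 0.22 SE, adjusted p = 0.000112). In the 9 tested genes of prostaglandin synthesis 1 rose and 3 fell, or 1 and 5 with the block; 0 rose without any 1 of the 4 libraries, and 2 fell without either replicate 1 library or without the combination library of replicate 2. Among NF-kB subunits and feedback genes 4 of 26 rose and 8 fell, or 9 and 8 with the block. The feedback inhibitor NFKBIA (204 and 201 against 114 and 98.1 CPM; -0.94 ± 0.09), the coactivator BCL3 (-1.59 ± 0.18) and the kinases IKBKE (-1.33 ± 0.15) and IKBKB (-0.68 ± 0.09) fell. The inhibitor NFKBIB went the other way, from 30.9 and 31.3 to 59.5 and 66.9 CPM (1.03 ± 0.11).

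**Figure D2:**
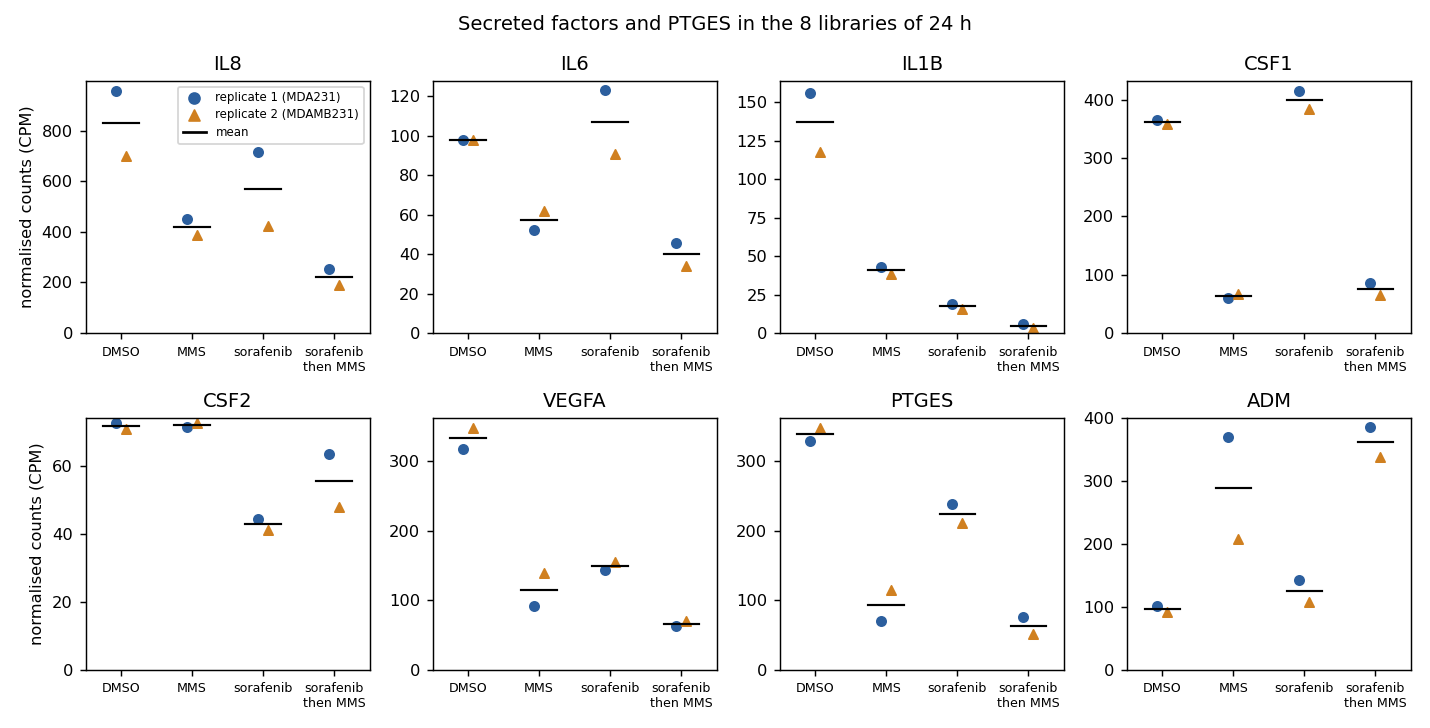
CPM of 8 genes in the 8 libraries of 24 h; circles are replicate 1, triangles replicate 2 and bars the mean of the pair. In CSF1 and PTGES the combination lies below sorafenib much as MMS lies below DMSO, IL1B and VEGFA are lower with sorafenib already, and ADM is higher with MMS in both pairings.

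Angiogenic genes fell more often than they rose. Of 37 ligands, receptors and inhibitors on the list 31 were tested, of which 12 fell and 3 rose (median -0.26). VEGFA, the main endothelial growth factor, fell from 144 and 154 to 62.2 and 69.8 CPM (log2 change -1.17 ± 0.18 SE, adjusted p = 0.000452), and the lymphatic factor VEGFC from 62.2 and 68.5 to 47.8 and 47.0 CPM (log2 change -0.46 ± 0.08 SE, adjusted p = 0.00112). Sorafenib alone, which called 114 genes against DMSO at 24 h (0.817%), had lowered VEGFA already (-1.16 ± 0.18 against DMSO at 24 h), in a comparison that uses the same sorafenib libraries. The platelet-derived factor PDGFC (-0.54 ± 0.08), the semaphorin SEMA3C (174 and 179.7 against 94.1 and 91.8 CPM; -0.93 ± 0.08) and the VEGF co-receptors NRP1 (293 and 329 against 133 and 162 CPM; -1.08 ± 0.19) and NRP2 (-1.07 ± 0.19) fell too. The 3 that rose include the vasodilator peptide ADM and the vasoconstrictor endothelin EDN1. EDN1 went from 40.7 and 56.0 to 96.2 and 122 CPM (1.18 ± 0.23). ADM stood at 143 and 108 against 386 and 338 CPM (log2 change 1.53 ± 0.36 SE, adjusted p = 0.00635), and did not pass without the sorafenib library of replicate 2 (adjusted p = 0.056). The angiogenesis inhibitor THBS1 stood at 1561 and 1347 against 1217 and 1210.3 CPM and did not pass (log2 change -0.26 ± 0.11 SE, adjusted p = 0.0766, 0.024 with the block).

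Genes of the matrix around the cell mostly fell. Of 35 tested collagens, laminins and integrins 25 fell (71.4%) and 1 rose, with a median of -1.24. The collagen chains COL5A1 (193 and 183 against 46.4 and 40.6 CPM; log2 change -2.11 ± 0.14 SE, adjusted p = 4.76e-06) and COL13A1 (116 and 119.6 against 24.7 and 17.1 CPM; -2.49 ± 0.18) and fibronectin FN1 (569.8 and 573 against 283 and 295 CPM; -0.98 ± 0.14) fell. The integrin chains ITGA3 (1148 and 1045 against 475 and 397 CPM; -1.33 ± 0.10), ITGB5 (-1.25 ± 0.08) and ITGA1 (-1.62 ± 0.13), which bind this matrix, fell with them. Among 32 matrix proteases and inhibitors 17 fell and 5 rose (median -0.74). The collagen cross-linking oxidase LOXL2 had, with KIAA1199, the smallest p of all falls, at 528 and 529.8 against 177 and 154 CPM (log2 change -1.67 ± 0.09 SE, adjusted p = 2.06e-06). The metalloprotease inhibitor TIMP3 (387 and 421 against 181 and 144 CPM; -1.31 ± 0.11), the proteases ADAMTS15 (-2.30 ± 0.22), ADAM8 (-1.81 ± 0.18) and ADAM10 (-0.81 ± 0.10) and urokinase PLAU (216 and 301 against 94.7 and 95.8 CPM; -1.44 ± 0.24) also fell. Of the TGF-beta and BMP pathway 12 of 32 fell and 2 rose, or 17 and 4 with the block. Its transducers SMAD3 (259.9 and 260.1 against 160.2 and 128 CPM; -0.85 ± 0.09) and SMAD2 (-0.63 ± 0.08), the receptor TGFBR1 (-1.09 ± 0.12), the repressor TGIF1 (-0.80 ± 0.09) and the latent TGF-beta binding protein LTBP1 (30.2 and 33.0 against 3.32 and 5.53 CPM; -2.84 ± 0.34) fell. ID2, a BMP target, rose from a level near the detection limit (0.211 and 0.277 against 0.876 and 1.43 CPM; 2.22 ± 0.43). The YAP list split, with 2 of 15 up and 5 down; 3 fell without the sorafenib library of replicate 1, and 3 without the combination library of replicate 1. CTGF rose from 157 and 174 to 301 and 374 CPM (1.03 ± 0.15) and CRIM1 fell from 1019 and 818 to 495 and 397 CPM (-1.04 ± 0.18). Cyclic nucleotide phosphodiesterases, which break down cAMP and cGMP, had 9 of 14 lower and 0 higher, among them PDE4B (-1.90 ± 0.20), PDE8A (-1.03 ± 0.10) and PDE10A (-1.13 ± 0.16).

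At 24 h the stress programs did not move together. Of the ATF4 integrated stress response, which supplies amino acids when translation initiation is restrained, 16 of 37 tested genes rose and 4 fell (median 0.32); 1 fell without the sorafenib library of replicate 1, and 2 without the combination library of replicate 2. Several that rose serve amino acid supply. Asparagine synthetase ASNS stood at 45.0 and 31.2 against 138 and 119.7 CPM (log2 change 1.75 ± 0.24 SE, adjusted p = 0.000192). The transporter subunit SLC3A2 rose from 232 and 197 to 438 and 486 CPM (1.11 ± 0.13). In both, each combination library exceeded each sorafenib library by more than the replicates differed. The glutamine transporter SLC1A5 rose from 279.9 and 299 to 503 and 542 CPM (0.85 ± 0.11) and the serine hydroxymethyltransferase SHMT2 from 212 and 222 to 374 and 368 CPM (0.77 ± 0.08). The cystine transporter SLC7A11 rose from uneven levels, 78.9 and 38.1 against 197 and 184 CPM (1.70 ± 0.36). PCK2 (1.27 ± 0.15) and the stress cofactor NUPR1 (1.71 ± 0.26) rose too. Among the regulators of the program DDIT3, ATF3 and SESN2 did not pass. DDIT3, which encodes CHOP, stood at 16.5 and 15.3 against 16.2 and 24.1 CPM (log2 change 0.34 ± 0.18 SE, adjusted p = 0.162), ATF3 at 9.79 and 9.03 against 10.3 and 17.9 CPM (log2 change 0.58 ± 0.22 SE, adjusted p = 0.061, 0.0128 with the block) and the mTORC1 regulator SESN2 at 14.7 and 12.9 against 13.8 and 15.8 CPM (log2 change 0.10 ± 0.12 SE, adjusted p = 0.574). Without the combination library of replicate 1 DDIT3 and ATF3 did pass, at 0.62 and 0.95, and without that of replicate 2 they stood at 0.05 and 0.15. The pseudokinase TRIB3 stood at 36.5 and 30.3 against 41.8 and 49.9 CPM (log2 change 0.45 ± 0.14 SE, adjusted p = 0.022), and did not pass without the sorafenib library of replicate 2 (adjusted p = 0.156) or without the combination library of replicate 2 (adjusted p = 0.162). DDIT4, an inhibitor of mTORC1, fell from 228 and 193 to 29.6 and 21.2 CPM (log2 change -3.05 ± 0.22 SE, adjusted p = 6.09e-06). Of 20 cytosolic aminoacyl-tRNA synthetases, which load tRNAs, 10 rose and 0 fell, among them HARS (134 and 133 against 192 and 204 CPM; 0.57 ± 0.07), SARS (0.67 ± 0.11) and WARS (0.59 ± 0.09).

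Endoplasmic reticulum chaperones and their regulators fell more often than they rose. Of 31 tested genes 13 fell and 1 rose (median -0.22); 7 fell without the sorafenib library of replicate 1, and 7 without the combination library of replicate 2. The lumenal HSP70 chaperone HSPA5 stood at 962 and 904 against 611 and 582 CPM (log2 change -0.65 ± 0.11 SE, adjusted p = 0.000641). The degradation factor HERPUD1 fell from 53.3 and 46.4 to 27.7 and 32.9 CPM (-0.72 ± 0.12) and the unfolded protein response factor XBP1 from 74.4 and 68.6 to 47.8 and 54.5 CPM (-0.48 ± 0.10). The sensor kinase EIF2AK3, or PERK, fell from 39.0 and 34.1 to 16.8 and 18.9 CPM (-1.04 ± 0.12) and the transport coat gene SEC24D from 117 and 116 to 58.0 and 67.0 CPM (-0.90 ± 0.09). In all of these both combination libraries were the lower ones. The RefSeq promoter table (GRCh38.p14) holds windows for 23 of the 31 genes and for 7606 of all 13948 tested (54.5%), too few for a check of shares, which is void; the counts that follow describe these windows only. The ER stress element, which is CCAAT, any 9 bases and then CCACG, on either strand, occurred in 5 of the 23 and in 0.158% of the 7606. Of the 5, HSPA5 and HSP90B1 fell, and CALR, CRELD2 and ERO1LB did not pass. For the other stress lists, the NRF2 element (TGAC, any 3 bases, GC) was in 4 of 15 NRF2 windows, 0 of the 6 of genes that rose, and 15.4% of the 7606. The ATF4 element (TGATG, any base, AA) was in 2 of 18 ATF4 windows, 1 of the 6 of genes that rose, and 1.56% of the 7606. HSPA5 is shown as the textbook case of a gene with this element, as the 150 bases before its start on the minus strand, chr9:125241344-125241493, with the element in capitals.
HSPA5: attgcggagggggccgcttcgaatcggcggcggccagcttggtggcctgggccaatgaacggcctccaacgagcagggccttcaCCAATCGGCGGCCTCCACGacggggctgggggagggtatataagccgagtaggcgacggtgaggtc

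Redox and cytosolic stress genes rose more often than they fell. Of 30 NRF2 and redox genes 14 rose and 4 fell (median 0.26); 2 fell without the sorafenib library of replicate 1, and 1 without the combination library of replicate 2. The quinone reductase NQO1, an NRF2 target, had the smallest p of all rises, at 101 and 94.9 against 299 and 307 CPM (log2 change 1.63 ± 0.10 SE, adjusted p = 2.67e-06). Transaldolase TALDO1 (175 and 194 against 308 and 354 CPM; 0.84 ± 0.10), sulfiredoxin SRXN1 (0.71 ± 0.13), OSGIN1 (5.07 and 7.15 against 13.9 and 21.8 CPM; 1.55 ± 0.29) and LOC344887 (2.25 ± 0.43; 1.46 without the combination library of replicate 2) rose as well. Heme oxygenase HMOX1 stood at 11.4 and 12.7 against 15.7 and 23.9 CPM (log2 change 0.71 ± 0.21 SE, adjusted p = 0.0205), and did not pass without the sorafenib library of replicate 1 (adjusted p = 0.102) or without the combination library of replicate 2 (adjusted p = 0.191). The efflux transporter ABCC3 fell from 16.9 and 14.2 to 3.40 and 2.39 CPM (-2.42 ± 0.27). Of 30 heat shock proteins and co-chaperones 13 rose and 1 fell, or 15 and 4 with the block (median 0.33). The HSP90 cochaperone AHSA1 (185 and 187 against 285 and 278 CPM; 0.60 ± 0.09), HSPA4L (0.66 ± 0.12), the regulator HSF1 (0.56 ± 0.11) and DNAJA1 (0.40 ± 0.08) rose. HSPA6, a strictly inducible HSP70 with close paralogs, rose from 0.127 and 0.111 to 3.69 and 1.68 CPM (adjusted p = 0.00117), with too few reads under sorafenib for a fold change. Of 14 metallothionein and zinc genes 8 were tested, of which 4 fell and 0 rose, among them MT1E (53.3 and 58.6 against 25.6 and 24.1 CPM; -1.17 ± 0.11), MT2A (-0.68 ± 0.12) and the zinc importer SLC39A10 (-1.17 ± 0.16); metallothioneins are near-identical and can share reads. Proteasome subunits rose in 15 of 37 and fell in 2 (median 0.24), led by PSMD12 (122 and 126 against 203 and 204 CPM; 0.72 ± 0.08) and PSMD3 (0.55 ± 0.08).

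Genes of mitosis were lower and several genes of DNA synthesis higher. Of 45 mitosis and G2/M genes 35 fell (77.8%) and 1 rose, with a median of -0.58; 23 fell without the sorafenib library of replicate 1. The mitotic kinesin KIF20A stood at 273 and 299 against 101 and 116 CPM (log2 change -1.40 ± 0.12 SE, adjusted p = 1.63e-05) and the spindle protein DLGAP5 at 313 and 302 against 133 and 133 CPM (log2 change -1.21 ± 0.11 SE, adjusted p = 2.07e-05). Cyclin B2, CCNB2, fell from 98.1 and 104 to 52.5 and 55.6 CPM (-0.90 ± 0.10), the kinase NEK2 from 74.6 and 75.2 to 41.7 and 41.0 CPM (-0.86 ± 0.09) and the midzone bundler PRC1 from 341 and 330.1 to 206 and 212 CPM (-0.68 ± 0.08). Replicates lay close together and the groups did not overlap. The mitotic kinases PLK1 (191 and 195 against 93.6 and 99.1 CPM; -1.003 ± 0.12) and AURKA (-0.85 ± 0.11) and cyclin B1, CCNB1 (-0.94 ± 0.13), fell too. Of 47 replication and E2F targets 21 rose and 5 fell (median 0.25). The ribonucleotide reductase subunit RRM2, which makes deoxyribonucleotides, rose from 287 and 319 to 605 and 672 CPM (log2 change 1.08 ± 0.08 SE, adjusted p = 7.28e-06). The licensing factors CDC6 rose from 167 and 174 to 276 and 275 CPM (0.69 ± 0.07) and CDT1 from 42.5 and 42.5 to 80.6 and 85.4 CPM (0.96 ± 0.12), and the chromatin assembly subunit CHAF1A from 80.8 and 78.1 to 119 and 121 CPM (0.59 ± 0.07). The replicative helicase subunits MCM7 (315 and 347 against 209 and 204 CPM; -0.68 ± 0.09), MCM6 (-0.87 ± 0.13) and MCM5 (-0.75 ± 0.11) fell, as did E2F2 (-1.78 ± 0.27). CDC25A, the phosphatase that drives entry into S phase, rose from 45.6 and 63.3 to 108 and 127 CPM (1.11 ± 0.16), and the opposing kinase WEE1 fell from 75.5 and 70.0 to 47.3 and 43.9 CPM (-0.67 ± 0.09). Among 19 tested G1 regulators 4 rose and 5 fell, or 8 and 7 with the block; the inhibitors CDKN1B (51.2 and 47.2 against 27.8 and 25.9 CPM; -0.87 ± 0.09) and CDKN2C (65.2 and 65.4 against 32.7 and 33.3 CPM; -0.98 ± 0.13) fell and CDK4 (0.42 ± 0.08) and MYC (169.6 and 192 against 242 and 249.6 CPM; 0.44 ± 0.10) rose. Of 74 histone genes 25 passed the filter, of which 0 rose and 2 fell, or 0 and 5 with the block, and 1 fell without either sorafenib library or without the combination library of replicate 1; the linker histone H1F0 stood at 339 and 312 against 143 and 157 CPM (-1.12 ± 0.12).

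Promoters of G2/M genes are known for the cell cycle homology region, TTTGAA, with CCAAT boxes upstream, through which the DREAM complex, B-MYB and NF-Y act. In the 32 mitosis genes with a window in the promoter table, 24 held TTTGAA on either strand within 250 bases before to 50 bases after the start, and 28 held CCAAT on either strand; over all 7606 windows the shares were 9.44% and 37.8%. TTTGAA was in 20 of the 27 windows of genes that fell, and also in that of the 1 gene that rose, MAD2L1. As the table holds too few of the genes, these are counts and no check. Members that fell are printed as the 150 bases before the start, with TTTGAA (or its reverse complement TTCAAA) and CCAAT in capitals where they read in this direction. They are CCNB2 on the plus strand at chr15:59104996-59105145, DLGAP5 on the minus strand at chr14:55191586-55191735 and PRC1 on the minus strand at chr15:90994536-90994685.
CCNB2: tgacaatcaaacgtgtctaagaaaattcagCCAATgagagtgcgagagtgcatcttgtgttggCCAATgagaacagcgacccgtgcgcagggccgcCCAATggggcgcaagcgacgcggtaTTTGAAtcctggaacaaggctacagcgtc
DLGAP5: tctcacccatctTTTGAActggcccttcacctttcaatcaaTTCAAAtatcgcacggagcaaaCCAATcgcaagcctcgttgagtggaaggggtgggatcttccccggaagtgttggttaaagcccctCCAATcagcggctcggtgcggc
PRC1: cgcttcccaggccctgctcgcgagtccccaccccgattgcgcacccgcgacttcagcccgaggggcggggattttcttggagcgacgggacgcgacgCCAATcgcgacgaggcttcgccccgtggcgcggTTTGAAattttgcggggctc
In CCNB2 and PRC1 TTTGAA begins 29 and 20 bases before the start and lies downstream of the CCAAT boxes printed. In DLGAP5 the matches within the bases printed begin 138 and 109 bases before the start, upstream of the CCAAT boxes, and its counted window holds another that begins 3 bases after the start. Matches are descriptions of the sequence and not measured sites.

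Repair genes rose more often than they fell, but not every list exceeded the 18% of all genes that rose. The share that rose was 34.5% in direct reversal and base excision repair and 40.5% in recombination and Fanconi genes. In checkpoint genes it was 30.8%, in mismatch repair 25% and in translesion genes 15%. Of 29 genes of direct reversal and base excision repair 10 rose and 4 fell (median 0.28); 2 fell without the sorafenib library of replicate 1, and 2 without either combination library. The dioxygenases ALKBH1 (16.5 and 19.6 against 31.9 and 34.8 CPM; 0.89 ± 0.13) and ALKBH2 (23.0 and 24.8 against 40.3 and 36.9 CPM; log2 change 0.69 ± 0.13 SE, adjusted p = 0.00123), which take methyl groups off DNA bases, rose. ALKBH3 (21.4 and 20.8 against 25.2 and 22.6 CPM; log2 change 0.18 ± 0.12 SE, adjusted p = 0.251) and the glycosylase MPG (30.9 and 31.6 against 27.5 and 23.1 CPM; log2 change -0.30 ± 0.18 SE, adjusted p = 0.216), which removes methylated purines, did not pass. MGMT did not pass the low-count filter. Flap endonuclease FEN1 (199.9 and 198 against 297 and 303 CPM; 0.59 ± 0.09), the end processor APTX (0.71 ± 0.09) and APEX2 (0.68 ± 0.11) rose, and the scaffold XRCC1 fell from 31.0 and 28.1 to 16.8 and 19.0 CPM (-0.72 ± 0.10). Of 37 homologous recombination and Fanconi genes 15 rose and 2 fell (median 0.24); 9 rose without the combination library of replicate 1, and 8 without the sorafenib library of replicate 2. The recombination factors XRCC3 (43.6 and 48.2 against 82.3 and 86.8 CPM; 0.88 ± 0.10) and XRCC2 (26.9 and 26.6 against 56.1 and 50.7 CPM; 1.00 ± 0.14) and the end resection factor RBBP8 (0.56 ± 0.09) rose, and RMI2 fell (-0.85 ± 0.14). Of 26 checkpoint genes 8 rose and 3 fell, or 11 and 5 with the block, among them RAD1 (0.53 ± 0.08), RAD9A (0.74 ± 0.13) and TIPIN (0.65 ± 0.11) higher. Of 20 translesion genes 3 rose and 0 fell, or 7 and 3 with the block, and 1 rose without the sorafenib library of replicate 2; RAD18, which marks PCNA for bypass, stood at 81.8 and 83.7 against 136 and 123.6 CPM (0.65 ± 0.10). Of 8 mismatch repair genes 2 rose and 0 fell, led by the exonuclease EXO1 (0.77 ± 0.16); 1 rose without either sorafenib library or without the combination library of replicate 2.

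Some genes of growth arrest and cell death rose and others fell, in no list much more often than among all genes (18% and 18.8%). Of 31 tested p53 target genes 6 rose (19.4%) and 3 fell (9.68%), or 10 and 7 with the block. The shares were 11.5% and 15.4% in the BCL2 family and caspases, and 21.4% each way in death ligands and receptors. The cyclin-dependent kinase inhibitor CDKN1A differed by experiment, at 36.7 and 68.8 against 64.1 and 136 CPM (log2 change 0.93 ± 0.49 SE, adjusted p = 0.163), so that its groups overlapped; with the block its adjusted p was 6.77e-06. The ubiquitin ligase gene MDM2 stood at 74.4 and 75.4 against 83.1 and 88.9 CPM (log2 change 0.20 ± 0.08 SE, adjusted p = 0.0833, 0.0333 with the block). The TIGAR gene C12orf5 (21.8 and 21.1 against 32.6 and 31.7 CPM; 0.58 ± 0.08) and PLK3 (0.97 ± 0.21) rose, and GDF15, a stress cytokine (19.4 and 14.7 against 5.77 and 6.62 CPM; -1.46 ± 0.32), and the BH3 gene PMAIP1 (167 and 166 against 119.8 and 110.2 CPM; -0.53 ± 0.08) fell. In the BCL2 family and caspases 3 of 26 rose and 4 fell, or 5 and 7 with the block, and 2 fell without the sorafenib or without the combination library of replicate 1; the BH3 gene BMF fell from 16.3 and 14.1 to 2.48 and 1.68 CPM (-2.86 ± 0.29). TRAIL receptors differed among themselves: TNFRSF10D, a decoy, rose from 59.5 and 56.7 to 143 and 149 CPM (1.33 ± 0.15), TNFRSF10A from 28.0 and 29.8 to 56.2 and 56.1 CPM (0.96 ± 0.11), and TNFRSF10B stood at 199 and 218 against 191 and 194 CPM (log2 change -0.12 ± 0.07 SE, adjusted p = 0.226). Of 14 death ligands and receptors 3 rose and 3 fell.

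Genes that build ribosomes had the highest median of the 45 lists (0.55): 18 of 24 ribosome biogenesis genes rose (75%) and 0 fell. The rRNA methyltransferase NOP2 stood at 86.0 and 103 against 181 and 212 CPM (log2 change 1.05 ± 0.10 SE, adjusted p = 2.4e-05). The processing factor RRP12 rose from 76.0 and 74.9 to 186 and 174 CPM (1.26 ± 0.17) and the nucleolar phosphoprotein NOLC1 from 406 and 410.4 to 731 and 693 CPM (0.80 ± 0.11). PES1 rose from 101 and 108 to 178 and 179.5 CPM (0.77 ± 0.11) and the RNA polymerase I subunit POLR1B from 62.5 and 67.4 to 109 and 111 CPM (0.76 ± 0.11). Each was higher in both combination libraries. Of 16 snoRNA host genes 12 were tested, of which 7 rose and 1 fell, and 4 rose without the sorafenib library of replicate 1; SNHG1 went from 143 and 121 to 333 and 312 CPM (1.29 ± 0.21) and GAS5 from 39.0 and 36.8 to 80.2 and 75.4 CPM (1.04 ± 0.16). Mitochondrial ribosomal proteins rose in 39 of 76 (51.3%) and fell in 1 (median 0.35), led by MRPS2 (80.6 and 76.6 against 145 and 143 CPM; 0.88 ± 0.12) and MRPS30 (0.66 ± 0.09). That count was 23 without the sorafenib library of replicate 1, 23 without the combination library of replicate 1 and 25 without the sorafenib library of replicate 2. Respiratory chain genes, which those ribosomes partly serve, rose in 8 of 92 and fell in 5 (18 and 18 with the block; 3 to 5 and 1 to 2 without any 1 of the 4 libraries). Proteins of the cytosolic ribosome rose in 9 of 76 and fell in 3 (4 to 5 and 0 to 1 without any 1 library), and their pseudogenes can share reads.

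Among lipid, hypoxia and interferon genes falls outnumbered rises, and most members did not pass. Of 31 tested genes of cholesterol and fatty acid synthesis 15 fell and 0 rose (median -0.35), among them the regulator SREBF2 (141 and 131 against 76.4 and 75.8 CPM; -0.84 ± 0.09), the feedback gene INSIG1 (76.1 and 65.4 against 30.8 and 31.2 CPM; -1.19 ± 0.12) and the desaturase SCD (-1.07 ± 0.13). Of 40 hypoxia and glycolysis genes 16 fell and 1, ADM, rose (median -0.37). Lactate dehydrogenase LDHA stood at 1285 and 1396 against 808 and 784 CPM (log2 change -0.75 ± 0.07 SE, adjusted p = 2.44e-05) and pyruvate kinase PKM2 at 1934 and 2309 against 1195 and 1297 CPM (-0.77 ± 0.09). Carbonic anhydrase CA12 fell from 12.9 and 17.7 to 3.32 and 3.77 CPM (-2.10 ± 0.20) and the prolyl hydroxylase EGLN3 from 12.7 and 10.8 to 3.21 and 3.10 CPM (-1.90 ± 0.25). In these 4 the groups did not overlap. HIF1A stood at 461 and 511 against 199 and 276 CPM (log2 change -1.03 ± 0.27 SE, adjusted p = 0.0107), and did not pass without the combination library of replicate 1 (adjusted p = 0.0934) or without the sorafenib library of replicate 2 (adjusted p = 0.0506). Of 38 interferon-stimulated genes 14 fell and 0 rose, or 23 and 1 with the block, and 9 fell without the combination library of replicate 2 (median -0.36). IFIT2 (119.8 and 119 against 44.6 and 31.5 CPM; -1.65 ± 0.14), IFIT3 (193 and 193 against 74.5 and 63.6 CPM; -1.48 ± 0.12) and IFIT1 (-2.23 ± 0.36), which bind viral RNA, the synthetase-like OASL (38.6 and 42.6 against 6.57 and 6.16 CPM; -2.67 ± 0.27) and the RNA sensor DDX58 (-0.91 ± 0.11) fell. Autophagy and lysosome genes had 6 of 30 up and 6 down, or 9 and 10 with the block. At 20% each way this was near the shares of all genes (18% and 18.8%).

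The kinase pathway that sorafenib inhibits had genes moving both ways. Of 28 genes of ERK output and feedback 4 rose and 8 fell, or 7 and 10 with the block. The nuclear ERK phosphatase DUSP4 fell from 459 and 457 to 232 and 219 CPM (log2 change -1.02 ± 0.07 SE, adjusted p = 4.53e-06), and the ETS factor ETV1 (55.7 and 47.5 against 27.1 and 25.4 CPM; -0.97 ± 0.13), the feedback inhibitor SPRY1 (-1.03 ± 0.16) and the EGFR inhibitor ERRFI1 (311 and 362 against 149.8 and 194 CPM; -0.97 ± 0.17) fell as well. DUSP6, the cytoplasmic ERK phosphatase, stood at 117 and 113 against 105 and 104 CPM (log2 change -0.13 ± 0.09 SE, adjusted p = 0.295). Of 30 immediate early genes 10 rose and 5 fell; 6 rose without the sorafenib library of replicate 1, and 6 without the combination library of replicate 2, while 2 fell without either replicate 1 library and 3 without the combination library of replicate 2. Besides EGR1, the phosphatase DUSP1 (88.8 and 74.8 against 151 and 145 CPM; 0.85 ± 0.16) and, from under 1 CPM, FOSB (1.41 ± 0.32) and ARC (3.67 ± 0.61) rose, and KLF6 (341 and 355 against 169 and 185 CPM; -0.98 ± 0.15) and FOSL2 (-0.70 ± 0.13) fell. EGF family ligands and receptors had 0 of 13 higher and 5 lower, or 9 with the block, and 2 lower without the sorafenib library of replicate 1 or without the combination library of replicate 2; the receptor inhibitor LRIG1 stood at 66.3 and 62.6 against 31.6 and 24.4 CPM (-1.20 ± 0.12). Of 20 Notch genes 0 rose and 5 fell, or 4 and 5 with the block, and 3 fell without the sorafenib library of replicate 1. Of 12 senescence and lamina genes 2 rose and 4 fell, or 4 and 7 with the block, with lamin A/C, LMNA, at 550.1 and 611 against 282 and 296 CPM (-1.01 ± 0.11). Of 15 tested luminal markers 1 rose and 7 fell, among them SPDEF (53.2 and 50.4 against 14.9 and 9.27 CPM; -2.09 ± 0.26) and ELF3 (39.7 and 20.5 against 5.48 and 2.47 CPM; -2.91 ± 0.45), and of 11 mesenchymal markers 0 rose and 5 fell, or 10 with the block, with caveolin CAV1 at 662 and 606 against 355 and 284 CPM (-0.99 ± 0.11).

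Whether sorafenib altered the response to MMS was asked by subtracting the effect of MMS against DMSO at 24 h, which uses 4 other libraries, from the effect described so far. Only the latter includes 12 h more sorafenib, so that an altered response and longer sorafenib cannot be told apart in the difference. In edgeR's test of that difference 0 of 13948 genes passed (0%), 304 had an unadjusted p under 0.05, and DESeq2 called 1. With the replicate block 4 genes passed (0.0287%) and 905 had an unadjusted p under 0.05. The smallest p was that of DUSP6, which was 421 and 425 CPM with DMSO, 211 and 181 with MMS, 117 and 113 with sorafenib and 105 and 104 with the combination. MMS lowered it without sorafenib, and with sorafenib it was low already and its change did not pass (log2 difference of the effects 0.98 ± 0.13, adjusted p = 0.103, and 0.000161 with the block). DESeq2's call and the call made without a low-count filter were also DUSP6. The other genes called with the block, named here for being so few, were CST1 (log2 difference 1.32), LPXN (0.72) and LOC647979 (-0.70). CST1 has close paralogs and differed between the experiments, at 50.6 and 169.6 CPM with DMSO. Few calls do not show that the effects were equal. Intervals were taken from the fit without the block, whose spread includes the difference between the experiments. The 95% interval of the difference between the effects had a median half-width of 0.46 (log2), and lay within 1 either way for 72.4% of genes. For IL8 it ran from -1.09 to 0.33, for IL6 from -1.26 to -0.04, for VEGFA from -0.20 to 0.90, for CSF1 from -0.40 to 0.60 and for NQO1 from -0.40 to 0.21. MMS alone called 4394 genes (31.5%). Of the 2511 genes that rose under sorafenib 1816 also rose without it (72.3% of these and 85.8% of the other list), and of the 2616 that fell 1942 also fell (74.2% and 85.3%). None was called in opposite directions. Across the 13948 genes, which are not independent, the effects had a Pearson correlation of 0.876. Without sorafenib the log2 changes of genes named above were, for example, -4.43 in KIAA1199, -2.51 in CSF1, -1.72 in LOXL2, 1.72 in NQO1 and 1.03 in RRM2. For KIAA1199 the interval of the difference ran from -1.98 to -0.12, and the difference did not pass. Sorafenib alone had raised this gene, from 30.8 and 39.4 CPM with DMSO to 119 and 99.7 (1.64 ± 0.23, edgeR adjusted p = 0.00605).

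**Figure D3:**
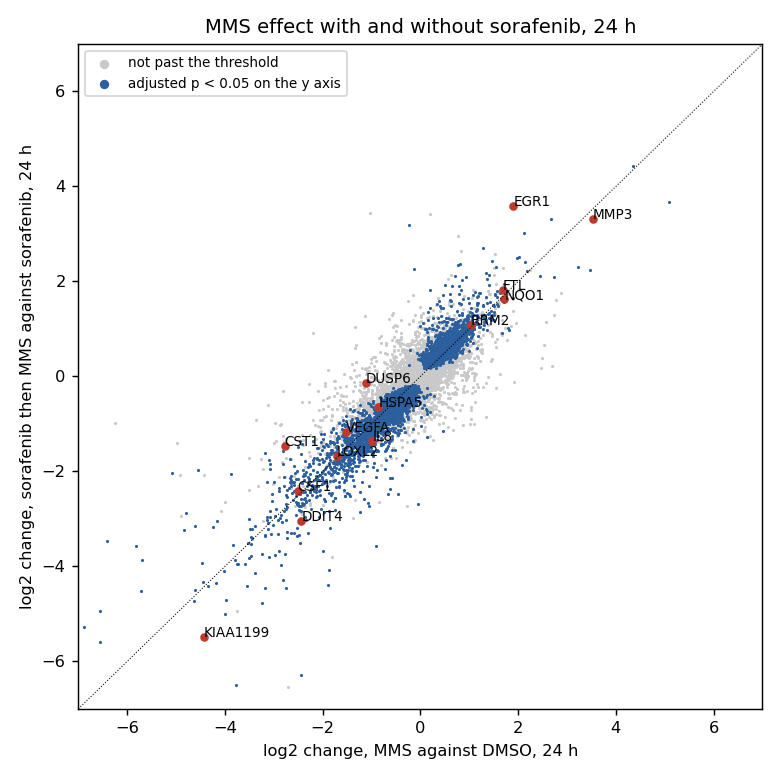
Each point is 1 of 13948 genes, placed by its log2 change with MMS against DMSO at 24 h (x) and with the combination against sorafenib at 24 h (y); blue points passed on the y axis, red points are named genes, and the dotted line marks equal change. Most called genes lie near that line, with DUSP6 near 0 on the y axis and at -1.11 on the x axis.

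The response at 24 h was compared with that at 8 h, where the same contrast rests on 4 other libraries and the combination again had 12 h more sorafenib. The difference passed in 1671 genes (12%), 696 of them higher at 24 h (4.99%) and 975 lower (6.99%), and in 4237 (30.4%) with the replicate block. Without any 1 of the 8 libraries the count was between 754 and 1531. It was 754 without the 24 h combination library of replicate 2 and 1050 without that of replicate 1, 782 and 1053 without the 24 h sorafenib libraries of replicates 1 and 2, and 891 and 761 without the 8 h sorafenib libraries of replicates 1 and 2. At 8 h 1809 genes rose (13%) and 1611 fell (11.6%). Of the 2511 genes that rose at 24 h 887 had risen at 8 h (35.3%, and 49% of those at 8 h) and 43 had fallen. Of the 2616 that fell 954 had fallen (36.5%, and 59.2%) and 86 had risen. Across genes the effects had a Pearson correlation of 0.503.

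Stress and inflammatory genes were among those that changed sides. HSPA5 was 1033 and 837 CPM with sorafenib against 3194 and 2817 with the combination at 8 h, where it rose by 1.68 ± 0.11, before its fall at 24 h. The difference between the times was -2.33 ± 0.15, adjusted p = 7.27e-06. HERPUD1 (-3.05 ± 0.18, adjusted p = 5.06e-06), XBP1 (-2.25 ± 0.14, adjusted p = 5.06e-06) and DDIT4 (-4.97 ± 0.31, adjusted p = 5.06e-06) likewise rose at 8 h and fell at 24 h. SESN2 was 13.1 and 15.7 CPM with sorafenib against 117 and 104 with the combination at 8 h, and its difference between the times was -2.84 ± 0.17, adjusted p = 5.06e-06. DNAJB9 (-1.97 ± 0.16, adjusted p = 9.66e-05), a cochaperone of HSPA5, and TRIB3 (-2.20 ± 0.19, adjusted p = 0.00012) also rose at 8 h and had a smaller effect at 24 h, where TRIB3 was still higher than with sorafenib. In the endoplasmic reticulum list 19 of 31 rose and 1 fell at 8 h, and 15 were called lower at 24 h than at 8 h and 0 higher. In the ATF4 list 31 of 37 rose at 8 h, and 18 were called lower at 24 h and 1 higher. The difference did not pass for ASNS, at 1.27 at 8 h and 1.75 at 24 h (adjusted p of the difference = 0.363) or SLC3A2, at 1.14 and 1.11 (adjusted p = 0.942). For SHMT2 it was 0.30 ± 0.12, adjusted p = 0.119, or 0.0364 with the block. NQO1 rose at both times (1.51 and 1.63; adjusted p of the difference = 0.649), whereas HMOX1 was 10.8 and 14.9 CPM with sorafenib against 178 and 145 with the combination at 8 h and had a difference of -2.94 ± 0.30, adjusted p = 0.000259.

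CXCL2 was 21.6 and 19.0 CPM with sorafenib against 79.2 and 76.8 with the combination at 8 h, a rise of 1.94, and fell by 24 h (difference -3.17 ± 0.33, adjusted p = 0.000296). VEGFA was 85.0 and 111 CPM with sorafenib against 214 and 214 with the combination at 8 h, a rise of 1.13, before its fall at 24 h (difference -2.30 ± 0.26, adjusted p = 0.000396). For IL8 (0.56 at 8 h; difference -1.92 ± 0.33, adjusted p = 0.00439) and IL6 (0.49 at 8 h; difference -1.91 ± 0.28, adjusted p = 0.0021) the change at 8 h had not passed, and the difference between the times did. CSF2 and THBS1 went the other way: CSF2 fell at 8 h (-1.50) and had a difference of 1.88 ± 0.16, adjusted p = 0.00012, and THBS1 fell at 8 h (-1.71) and had a difference of 1.45 ± 0.15, adjusted p = 0.000305. For KIAA1199 the fall at 8 h was smaller (-1.60; difference -3.89 ± 0.36, adjusted p = 0.000146). Mitosis genes had 40 of 45 lower at 8 h already, and 4 were called higher at 24 h than at 8 h and 1 lower. Ribosome biogenesis had 5 of 24 genes higher at 8 h, and 8 called higher at 24 h than at 8 h and 0 lower.

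**Figure D4:**
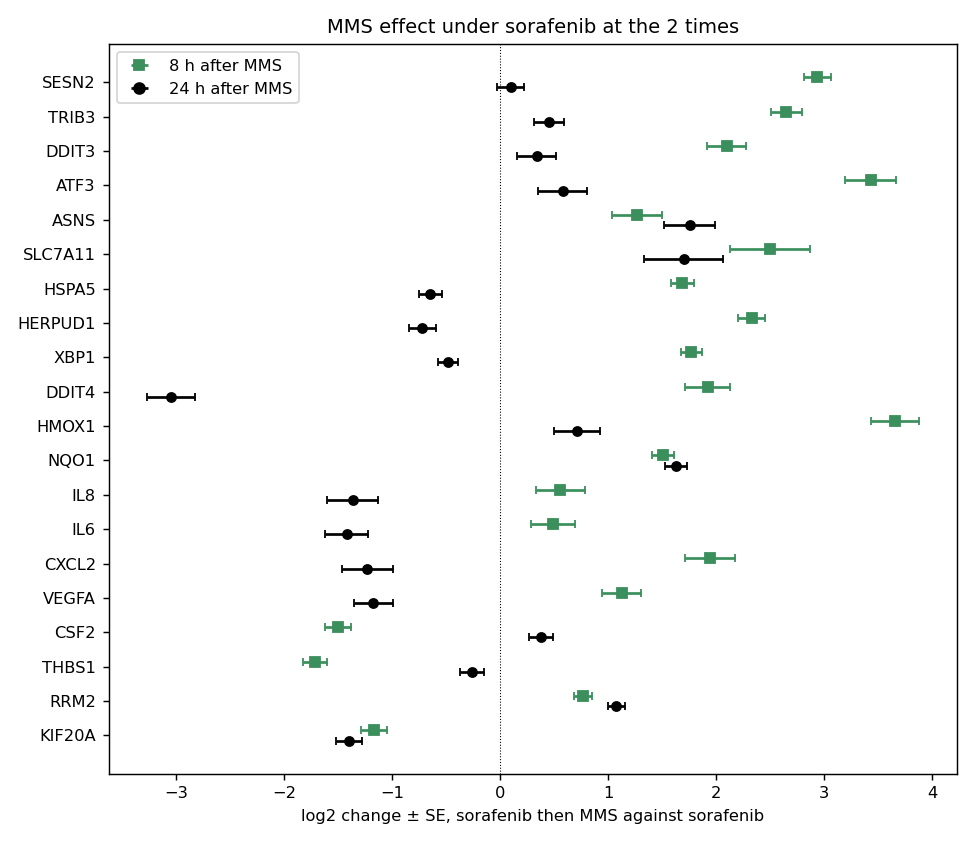
Log2 change of the combination against sorafenib with its SE for 20 genes, at 8 h (green squares) and 24 h (black circles) after MMS. HSPA5, HERPUD1, XBP1, DDIT4, CXCL2 and VEGFA lie right of 0 at 8 h and left of it at 24 h, and NQO1, RRM2 and KIF20A lie close together at both times.

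Called falls were more frequent among genes that span more of the genome. Gene spans, from start to end with introns, were taken from GENCODE v29 (GRCh38) by gene name, since the deposited counts carry no coordinates, and 13343 of the 13948 genes (95.7%) matched. Of 2721 genes of up to 10 kb 11.7% fell and 21.8% rose. The share that fell was 12.0% from 10 to 30 kb, 19.3% from 30 to 100 kb, 32.2% from 100 to 300 kb and 52.7% above 300 kb, where 518 genes were tested and 1.5% rose. The median log2 change went from 0.12 in the shortest class to -0.71 in the longest. Within the experiments taken singly, computed from log2(CPM + 0.5), the longest class had medians of -0.60 and -0.58. Genes that fell had a median span of 64.1 kb, those that rose 21.2 kb and those not called 31.1 kb. Within each class of transcript length the share above 300 kb exceeded that up to 10 kb: between 48.7% and 70.0% fell above 300 kb, and between 10.9% and 22.0% up to 10 kb, over transcripts of up to 2, 2 to 4, 4 to 6 and over 6 kb (20 to 291 genes above 300 kb, and 41 to 1472 genes up to 10 kb). MMS against DMSO at 24 h had a median of -0.60 in the longest class, and the combination against sorafenib at 8 h -0.62. Sorafenib against DMSO at 24 h, which shares the sorafenib libraries, had 0.08. Cyclic nucleotide phosphodiesterases had the longest median span of the lists (223.8 kb), and collagens, laminins and integrins had 90.4 kb, whereas cytokines and chemokines, which also fell, had 6.6 kb and mitosis genes 29.7 kb.

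**Figure D5:**
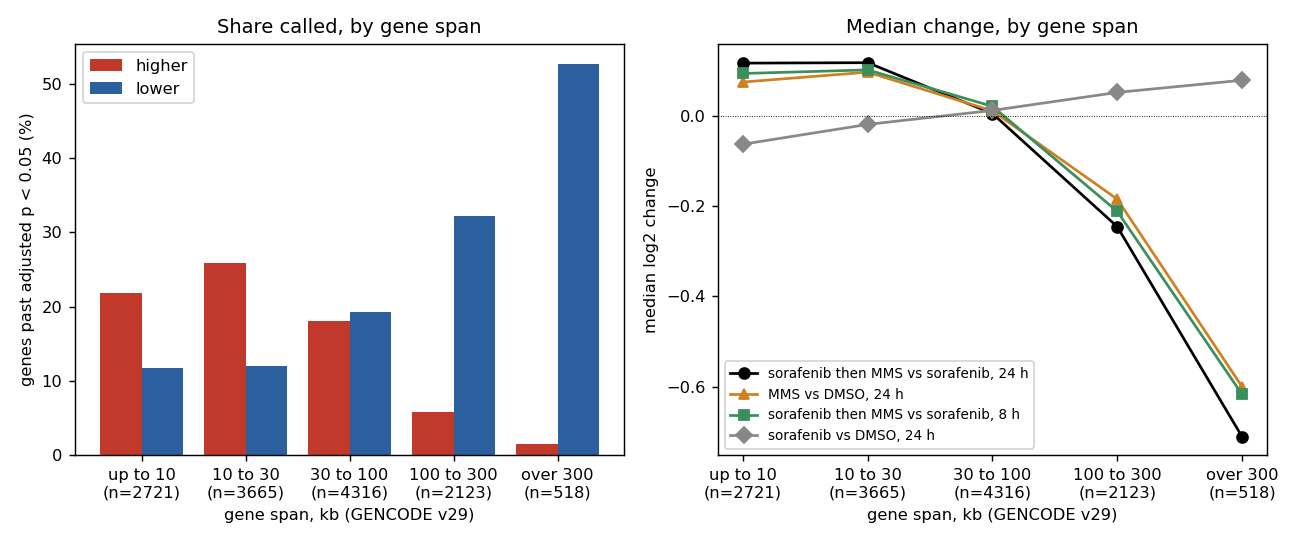
Left, the percent of genes in each class of genomic span that rose (red) or fell (blue) with the combination against sorafenib at 24 h. Right, the median log2 change per class in that comparison and in 3 others; above 300 kb the medians with MMS lie between -0.60 and -0.71 and that of sorafenib against DMSO at 0.08.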

How the data were processed

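RNA-seq read counts per gene were deposited by the authors for 16 libraries, 2 in each of 8 groups, as 23228 gene rows with gene symbols. Reads were handled with CASAVA 1.8.2, TopHat2 2.0.8b on hg19 and HTSeq, per the submitters' processing notes; annotation and strand setting are not given in the sources used here. The 5 counter rows were left out, of which reads in no feature were 7.13% to 7.69% in the 4 libraries and 6.88% to 7.94% over all 16. Alignments that were not unique, another of these rows, were 29.5% to 31.5% over all 16. Genes passing filterByExpr were fitted with edgeR 4.0.16 (R 4.3.3) by group over all libraries, with TMM factors and Benjamini-Hochberg adjustment over 13948 genes. DESeq2 1.42.0 and other settings were alternatives. Libraries with the same title start deviated together (28 pairs of groups, r from 0.462 to 0.752), so the title start pairs the samples and served as a block in an alternative fit. A count of 3 equals 0.109 to 0.166 CPM here, which covers counting error only. Genes named are the 12 largest changes each way at a mean count of at least 50, the smallest p, the leading members of each of 45 lists, and genes known for inflammation, angiogenesis and repair; a few more were added after their values were seen. The members and lists were chosen with earlier results of these data known. Some genes and lists are not reported here.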

Additional observations from a re-analysis of the deposited data

Results flagged for a closer look

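The effect of MMS in sorafenib-treated cells differed between 24 h and 8 h in 1671 genes by edgeR's test of the difference itself (adjusted p under 0.05), which counts as a difference between time points. Among genes with the smallest p, the log2 difference, 24 h minus 8 h, was positive in ZNF238 (1.40), CSF2 (1.88), RIN2 (1.28), THBS1 (1.45), C1orf106 (1.96), TMEM138 (1.05), STARD13 (1.06) and SFTA1P (1.31). It was negative in HERPUD1 (-3.05), SESN2 (-2.84), XBP1 (-2.25), DDIT4 (-4.97), HSPA5 (-2.33), DNAJB9 (-1.97), TSC22D3 (-2.94) and TRIB3 (-2.20). In these 16 genes the direction and the call were the same in all alternatives run for them, which were RLE size factors, DESeq2, other low-count filters, the replicate block and leaving out each of the 8 libraries in turn. As the 16 were picked by the smallest p of the same test, their stability does not speak for the rest of the 1671 genes. What sets these differences was not tested.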

How the results depend on the processing

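With the replicate block, in which the title start pairs the libraries, 7577 genes were called in the main comparison, and the 5127 genes called without it were among them; with only the 4 libraries and the block it was 8636. Asking for at least 2-fold left 1165 genes. Leaving out each of the 4 libraries gave 3264 to 3804 genes. The difference between MMS with and without sorafenib was called in 1 gene by DESeq2, 1 without a low-count filter and 4 with the block, and the difference between 24 h and 8 h in 4237 with the block and in 754 to 1531 without each library. Signs reversed for CXCL3 (0.223) and PTGS2 (0.053) without the sorafenib library of replicate 1, and for LPXN (-0.035) without the combination library of replicate 1; without each library in turn CXCL3 ran from -0.89 to 0.223, PTGS2 from -1.06 to 0.053 and LPXN from -0.035 to 0.502. In the main comparison none of these genes was called. Of 272 called genes among those named or held for the text, 272 kept their direction and 233 their call in all alternatives run. The cause was not tested. Fits without 1 library had no replicate block, so that the difference between the experiments enters them. With 2 libraries per group and no further replication, a p that misses the threshold does not show that a gene did not change.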
